A study of Homo sapiens with 8 samples.

Results

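The genes described here are 10 core members of the BCL2 family, which regulates apoptosis at the mitochondria. They were taken by symbol, for their known roles, from 36991 genes with a value, with earlier results of these data known. *BCL2*, *BCL2L1* and *MCL1* encode anti-apoptotic proteins, *BAX* and *BAK1* encode the effectors, and *BID*, *BAD*, *BBC3*, *PMAIP1* and *BCL2L11* encode BH3-only proteins. A gene was tested if its FPKM (fragments scaled by transcript length and sequencing depth) reached 1 or more in 2 or more of the 8 libraries. This held for 8 of the 10 members and for 10465 genes in all. *BCL2* and *BCL2L11* fell under this limit and are described without a test.

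RNA was sequenced from 2 cultures each of 4 lines made from MDA-MB-231 cells, an established line of triple-negative breast cancer. DAXX, the protein altered in these lines, is a histone H3.3 chaperone and regulator of transcription that binds SUMO-modified partners. Each line was made by lentiviral transduction and puromycin selection. Control cells received a scrambled shRNA, and KD cells an shRNA against the *DAXX* coding sequence. Wild-type *DAXX* cDNA was added in the WT OE line. In the DSM OE line the added cDNA was a mutant whose SUMO-interacting motifs are disabled. Both cDNAs were driven by a cytomegalovirus promoter and carried epitope tags, and no library came from a line with an empty cDNA vector. Every line also keeps the endogenous *DAXX* gene. One line stands for each condition, so the altered *DAXX* and the history of that line cannot be told apart. The labels speak of separate cultures of 1 line, and p-values measure the spread between such cultures.

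As background, BCL2, BCL-XL (the main product of *BCL2L1*) and MCL1 hold apoptosis in check by binding the effectors and the BH3-only proteins. When freed or activated, BAX and BAK open the outer mitochondrial membrane and cytochrome c leaves, which sets off the caspases. BH3-only proteins carry stress signals to this step. Many breast cancer cells depend on MCL1 or BCL-XL for survival, and MCL1 protein turns over fast.

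FPKM summed to between 162318 and 166886 per library, and no read counts were used here, so the reads behind each value are unknown. Depth relative to control replicate 1, estimated from values under an FPKM of 0.1, ran from 0.918 to 1.17. Libraries of 1 line correlated at r = 0.936 to 0.947 across the tested genes, and libraries of different lines at 0.893 to 0.932. *DAXX* was listed at 25.3 and 37.4 (control), 8.60 and 7.30 (KD), 158 and 283 (WT OE) and 64.6 and 93.8 (DSM OE). Both WT OE values lay above both DSM OE values (log2 fold change 1.43, limma adjusted p = 0.122), so *DAXX* level and the mutation cannot be told apart between them. All 5 markers of mesenchymal MDA-MB-231 cells were present, but *VIM*, the vimentin gene, was 39.1 in KD replicate 1 and 682 to 1328 elsewhere. The estrogen and progesterone receptor genes *ESR1* and *PGR* were at 0 in every library. The summed FPKM of lymphoid and myeloid markers was 1.26 to 1.82 (control), 5.06 to 5.16 (KD), 2.35 to 2.37 (WT OE) and 3.07 to 3.70 (DSM OE). *CD3E* and *MS4A1*, which define T and B cells, were at 0 throughout. *CD14* made up most of the KD sums (5.05 and 4.76), and *PTPRC*, the pan-leukocyte gene, did not exceed 0.0203. Fibroblast markers summed to 4.33 to 6.02, mostly from *COL1A1* (3.15 to 5.17) and *PDGFRB* (0.310 to 1.99). *PDGFRA* and *LUM* were at 0 throughout, and *DCN* did not exceed 0.0361. The part of these markers in the results below was not tested.

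*MCL1* mRNA was higher in the KD and DSM OE lines than in control, and *BID* mRNA was lower in both overexpression lines than in KD. These calls were not equally firm, as given for each gene below. The *BID* call in DSM OE comes from a comparison chosen after the values were seen. No other member passed the test in any of 6 comparisons. Calls rest on limma with Benjamini-Hochberg adjustment over the 10465 genes within a comparison and a threshold of 0.05. Of the 8 members tested, 1 was called higher in KD than in control and none lower (3 and 2 at an unadjusted p under 0.05), where 3.51% of all genes were called higher and 3.69% lower. In WT OE against control no member was called by limma (1 higher and 0 lower at an unadjusted p under 0.05), with 2.49% of all genes higher and 2.62% lower. In DSM OE against control 1 was called higher and none lower (2 and 0 unadjusted), with 5.51% and 5.5% of all genes. Against DSM OE, WT OE had 1 member called lower and none higher (1 and 0 unadjusted), with 0.65% of all genes lower and 0.946% higher. Against KD, WT OE had 2 called lower and none higher (2 and 1 unadjusted), with 5.91% and 5.78% of all genes. In DSM OE against KD, a comparison chosen after the values were seen, 1 was called lower and none higher (2 and 3 unadjusted), with 8.83% and 8.04% of all genes. At an unadjusted p under 0.05, limma gave 1267 of the 10465 genes higher and 1170 lower in KD over control. These counts were 1275 and 1086 in WT OE over control and 1553 and 1406 in DSM OE over control. They were 919 and 820 in WT OE against DSM OE and 1455 and 1501 in WT OE against KD. In DSM OE against KD they were 1688 and 1703. Applied to 8 genes, each of the adjusted shares comes to less than 1 gene, and the member counts were 0 to 2. Counts this small are not read as a result about the members.

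The median over the 8 tested members was above that of all genes in each line against control. Their median log2 fold change of FPKM + 1 over control was 0.35 (KD), 0.13 (WT OE) and 0.28 (DSM OE), and over all tested genes these medians were 0.03, 0.02 and 0.02. It was -0.23 in WT OE against DSM OE, -0.16 in WT OE against KD and 0.28 in DSM OE against KD (medians of all genes -0.01, 0.00 and 0.00). Comparisons that share a line share its libraries, so their values are given side by side and not as separate evidence. In these bulk samples, fewer cells of a kind and less RNA per cell cannot be told apart.

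**Figure D1:**
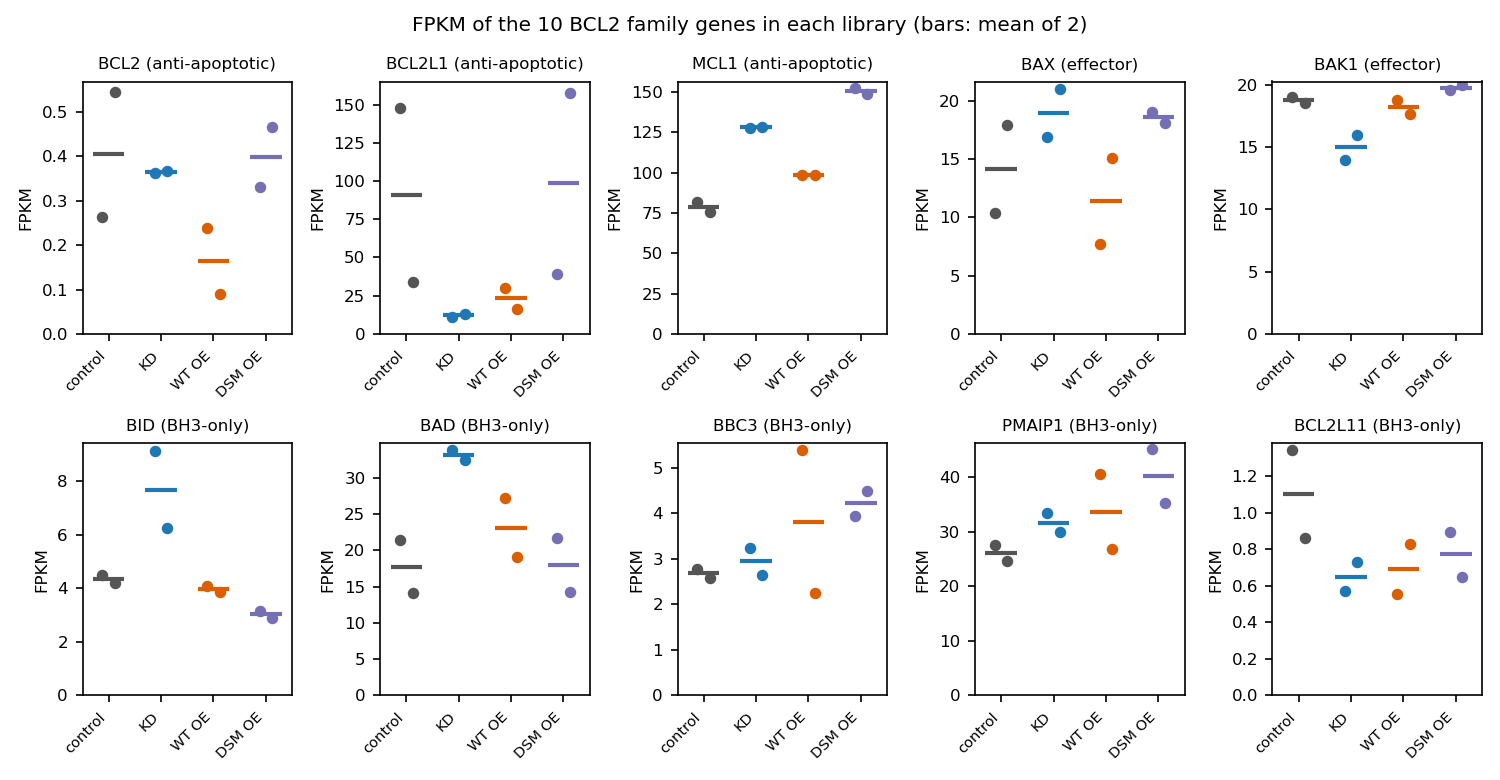
FPKM of each of the 10 members (1 panel a gene, with its own axis from 0) in the 2 libraries of control, KD, WT OE and DSM OE; points are libraries and bars their mean. *MCL1* duplicates sit close together at 4 separate levels, while those of *BCL2L1* lie far apart in control (148 and 33.8) and DSM OE (39.1 and 158).

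*MCL1* was the anti-apoptotic member whose 4 lines stood apart. The gene (ENSG00000143384) lies on chromosome 1 of GRCh38.p14 from 150574558 to 150579610. Its FPKM was 82.0 and 75.5 (control), 128 and 128 (KD), 98.7 and 98.8 (WT OE) and 153 and 149 (DSM OE). No 2 lines overlapped, in the ascending order control, WT OE, KD and DSM OE. The share of all genes whose lines do not overlap is not given here. The duplicates differed by at most 0.12 on the log2 scale, in control. KD stood 1.63-fold above control (128 ± 0.43 against 78.8 ± 4.55 FPKM, SD, n = 2), a log2 fold change of 0.70 (standard error 0.08, limma adjusted p = 0.00902). DSM OE stood 1.91-fold above control (151 ± 2.62 FPKM, SD, n = 2), a log2 fold change of 0.93 (standard error 0.08, limma adjusted p = 0.00402). The rise of 0.32 in WT OE over control did not pass (95% interval 0.13 to 0.52, limma adjusted p = 0.0821). WT OE was lower than DSM OE by a log2 fold change of -0.61 (limma adjusted p = 0.0335) and lower than KD by one of -0.37 (limma adjusted p = 0.0386). Between KD and DSM OE the difference of 0.23 did not pass (95% interval 0.04 to 0.43, limma adjusted p = 0.106). Neighbours in this order therefore passed the test only between WT OE and KD.

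These *MCL1* calls were not equally firm. The KD call was lost without control replicate 2 or either KD library (log2 fold change 0.64 to 0.75 with each of the 8 libraries left out in turn). The DSM OE call over control held with every library left out (0.87 to 0.99) and was lost when control and DSM OE were fitted alone (adjusted p = 0.0506). Both WT OE calls were lost without any 1 library, with fold changes of -0.62 to -0.59 against DSM OE and -0.38 to -0.37 against KD. They were also lost in a model with the replicate number. *ADAMTSL4-AS1*, the next gene, did not exceed an FPKM of 0.0612 in any library. RefSeq lists 3 curated transcripts of *MCL1*, which encode proteins of opposite effect, and a value per gene does not separate them.

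Over the 8 libraries, the genes most like *MCL1* were *EIF3A*, a translation initiation factor gene (r = 0.984), and *WASHC2A*, a gene of the endosomal WASH complex (r = 0.979). They were the closest of 5348 genes with a mean FPKM of at least 5. Mean *EIF3A* FPKM was 70.9 (control), 95.2 (KD), 77.7 (WT OE) and 107 (DSM OE), the same order as for *MCL1*. These correlations share 8 libraries and the 4 lines and describe likeness only.

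*BCL2L1* had the widest spread between duplicates of any tested member, and no difference in it passed the test. The gene (ENSG00000171552) lies on chromosome 20 from 31664452 to 31723963. Its FPKM was 148 and 33.8 (control), 11.1 and 13.0 (KD), 30.3 and 16.6 (WT OE) and 39.1 and 158 (DSM OE). Both KD libraries were the lowest of the 8, and the 2 highest were 1 library each of control and DSM OE. The duplicates were 4.39-fold apart in control, 4.04-fold in DSM OE, 1.83-fold in WT OE and 1.17-fold in KD. Mean FPKM was 90.9 ± 80.8 (SD, n = 2) in control and 12.1 ± 1.34 (SD, n = 2) in KD. The log2 fold change in KD was -2.46 with a standard error of 0.88 and a 95% interval of -4.64 to -0.29 (limma adjusted p = 0.169). It was -1.41 without control replicate 1 and -3.51 without control replicate 2. In DSM OE against KD it was 2.61 (95% interval 0.44 to 4.79, limma adjusted p = 0.102). WT OE stood at -1.62 against control (95% interval -3.79 to 0.56, limma adjusted p = 0.344). DSM OE against control gave 0.15, which ran from -0.90 to 1.20 with single libraries left out.

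Such wide gaps were uncommon among well expressed genes. Of 5368 genes with a mean FPKM of at least 5, the duplicates differed by over 1 on the log2 scale of FPKM + 1 in 5.46% (control), 4.90% (KD), 5.35% (WT OE) and 5.29% (DSM OE). The *BCL2L1* gaps were 2.10 in control and 1.99 in DSM OE, beside medians over these genes of 0.148 and 0.171. A gap over 1 in at least 2 lines was found for 235 of the 5368 genes (4.38%), *BCL2L1* among them. *TPX2*, a gene near *BCL2L1*, ran from 73.5 to 107 without such gaps. RefSeq lists 11 curated transcripts of *BCL2L1*, which include the anti-apoptotic long and the pro-apoptotic short form, and the deposited table has 1 value for all of them. The part of these forms in the spread was not tested.

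**Figure D2:**
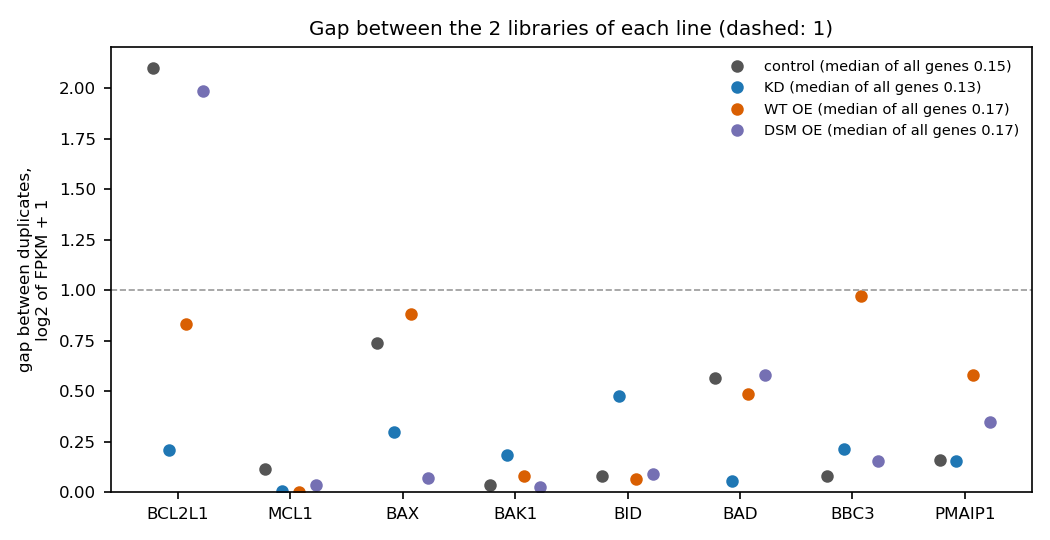
Absolute gap between the 2 libraries of each line, on the log2 scale of FPKM + 1, for the 8 tested members; colours are lines, the dashed line marks 1, and the legend gives the median gap over genes with a mean FPKM of at least 5. *BCL2L1* in control (2.10) and DSM OE (1.99) lies above 1, and *MCL1* lies near 0 in every line.

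*BCL2*, the founding anti-apoptotic member, was barely expressed. The gene (ENSG00000171791) lies on chromosome 18 from 63123346 to 63320090. Its FPKM was 0.263 and 0.546 (control), 0.362 and 0.366 (KD), 0.238 and 0.0899 (WT OE) and 0.331 and 0.466 (DSM OE). Both WT OE values were the lowest, and the other lines overlapped. Fitted without the filter, *BCL2* was called in no comparison (limma adjusted p = 0.358 to 1.0).

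Neither effector gene passed the test. *BAX* (ENSG00000087088; chromosome 19 from 48954875 to 48961798) encodes the effector that moves from the cytosol to mitochondria. It was listed at 10.3 and 17.9 (control), 16.9 and 21.0 (KD), 7.72 and 15.1 (WT OE) and 19.1 and 18.1 (DSM OE). The control and WT OE duplicates were 1.73-fold and 1.96-fold apart. The WT OE libraries lay below all KD and DSM OE libraries, with log2 fold changes of -0.74 against KD (95% interval -1.62 to 0.14, limma adjusted p = 0.245) and -0.73 against DSM OE (95% interval -1.61 to 0.16, limma adjusted p = 0.381).

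*BAK1* (ENSG00000030110; chromosome 6 from 33572552 to 33580276) encodes BAK, which resides on the mitochondrial membrane. It was listed at 19.0 and 18.5 (control), 14.0 and 16.0 (KD), 18.8 and 17.7 (WT OE) and 19.6 and 20.0 (DSM OE). Both KD libraries lay below the other 6. The log2 fold change in KD was -0.31 against control (95% interval -0.56 to -0.06, limma adjusted p = 0.138), and DSM OE stood 0.38 above KD (95% interval 0.13 to 0.63, limma adjusted p = 0.0531). That last difference passed with a stricter filter (adjusted p = 0.0431), median scaling (adjusted p = 0.0495) and quantile normalization (adjusted p = 0.0323). Its pseudogenes *BAK1P1* and *BAK1P2* did not exceed 0.230 and 0.0580.

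*BID* was the BH3-only gene with calls, and it was highest in KD. BID is cut by caspase-8, and the fragment carries death receptor signals to mitochondria. The gene (ENSG00000015475) lies on chromosome 22 from 17734138 to 17774665. Its FPKM was 4.51 and 4.22 (control), 9.13 and 6.26 (KD), 4.08 and 3.85 (WT OE) and 3.16 and 2.90 (DSM OE). No 2 lines overlapped, in the ascending order DSM OE, WT OE, control and KD. How many of all genes have lines without overlap is not given here. The KD duplicates were 1.46-fold apart, and those of the other lines at most 1.09-fold. KD was 1.94-fold above WT OE (7.70 ± 2.03 against 3.97 ± 0.161 FPKM, SD, n = 2), and the log2 fold change of WT OE against KD was -0.79 (standard error 0.17, limma adjusted p = 0.0402). KD was 2.54-fold above DSM OE (3.03 ± 0.185 FPKM, SD, n = 2), a log2 fold change of -1.09 for DSM OE against KD (standard error 0.17, limma adjusted p = 0.013). Against control, the rise of 0.68 in KD did not pass (95% interval 0.25 to 1.10, limma adjusted p = 0.0788), nor did the value of -0.41 in DSM OE (95% interval -0.84 to 0.01, limma adjusted p = 0.188). No neighbours in the order passed the test, since WT OE differed from control by -0.11 (adjusted p = 0.759) and from DSM OE by 0.30 (adjusted p = 0.446).

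The *BID* call of WT OE against KD was lost without any library but KD replicate 2 (log2 fold change -1.03 to -0.55), and that of DSM OE against KD without either DSM OE library (-1.33 to -0.85). Without KD replicate 2, the higher value against control passed the test (0.92, adjusted p = 0.0473). The genes most like *BID* over the 8 libraries were *CLP1*, an RNA kinase gene (r = 0.975), and *CORO1C*, an actin-binding coronin gene (r = 0.972). Both had their highest mean in KD and their lowest in DSM OE (10.0 and 5.71 FPKM for *CLP1*, 38.5 and 31.6 for *CORO1C*).

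RefSeq gives *BID* 5 promoter windows, each from 250 bases before a transcript start to 50 after it on the minus strand. A pair is shown because *BID* carried calls and its windows differ in a searched motif. Capitals mark an E-box (CACGTG), the site of MYC and USF factors, and the window of the outermost start (chr22:17774616-17774915) holds none of the motifs given here, while the inner one (chr22:17773993-17774292) holds an E-box. Both sequences are RefSeq, GRCh38.p14.
BID outermost window: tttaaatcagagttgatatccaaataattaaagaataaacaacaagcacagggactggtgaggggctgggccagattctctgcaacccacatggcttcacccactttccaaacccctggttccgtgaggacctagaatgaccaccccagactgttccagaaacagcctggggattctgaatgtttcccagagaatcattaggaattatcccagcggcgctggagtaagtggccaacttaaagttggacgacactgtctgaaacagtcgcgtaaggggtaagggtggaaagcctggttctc
BID inner window: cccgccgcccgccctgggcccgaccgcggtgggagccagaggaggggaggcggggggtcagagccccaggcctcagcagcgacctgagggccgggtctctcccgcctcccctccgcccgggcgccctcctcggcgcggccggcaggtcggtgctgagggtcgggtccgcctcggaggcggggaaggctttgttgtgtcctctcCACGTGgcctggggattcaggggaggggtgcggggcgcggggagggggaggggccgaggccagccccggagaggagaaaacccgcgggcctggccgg

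The other BH3-only genes did not pass the test. *BAD* (ENSG00000002330; chromosome 11 from 64269828 to 64284704) encodes a sensitizer that binds BCL2 and BCL-XL and is held inactive by phosphorylation. It was listed at 21.4 and 14.1 (control), 33.8 and 32.4 (KD), 27.2 and 19.1 (WT OE) and 21.7 and 14.2 (DSM OE). Both KD libraries lay above the other 6, and the other lines overlapped. The log2 fold change was 0.89 in KD against control (95% interval 0.18 to 1.60, limma adjusted p = 0.138) and -0.88 in DSM OE against KD (95% interval -1.58 to -0.17, limma adjusted p = 0.0955). The latter passed in the model with the replicate number (adjusted p = 0.0381). *GPR137* overlaps *BAD* on the other strand, with an FPKM of 0.548 in DSM OE replicate 1 and 3.28 to 6.04 in the other libraries. No source used here says whether reads were counted by strand, so reads of the 2 genes may not be separated.

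*PMAIP1* (ENSG00000141682; chromosome 18 from 59899996 to 59904305) encodes NOXA, which binds MCL1 and promotes its degradation. Its FPKM was 27.6 and 24.6 (control), 33.4 and 29.9 (KD), 40.6 and 26.8 (WT OE) and 45.2 and 35.3 (DSM OE). Both DSM OE values lay above all control and KD values. The log2 fold change in DSM OE over control was 0.60 (95% interval 0.05 to 1.14, limma adjusted p = 0.147). The WT OE duplicates were 1.51-fold apart, and WT OE overlapped every other line.

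*BBC3* (ENSG00000105327; chromosome 19 from 47220824 to 47232860) encodes PUMA, which binds all the anti-apoptotic proteins. It stood at 2.78 and 2.58 (control), 3.23 and 2.65 (KD), 5.38 and 2.25 (WT OE) and 3.94 and 4.49 (DSM OE). The WT OE duplicates, 2.39-fold apart, held both the highest and the lowest value. DSM OE stood 0.50 above control on the log2 scale (95% interval -0.26 to 1.26, limma adjusted p = 0.35).

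*BCL2L11* (ENSG00000153094; chromosome 2 from 111120914 to 111168445) encodes BIM, a target of FOXO factors. Its FPKM was 1.34 and 0.864 (control), 0.572 and 0.730 (KD), 0.556 and 0.829 (WT OE) and 0.895 and 0.649 (DSM OE). One control library alone reached 1, and both KD values and both WT OE values lay below both control values. Without the filter it was called in no comparison (limma adjusted p = 0.382 to 1.0).

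**Figure D3:**
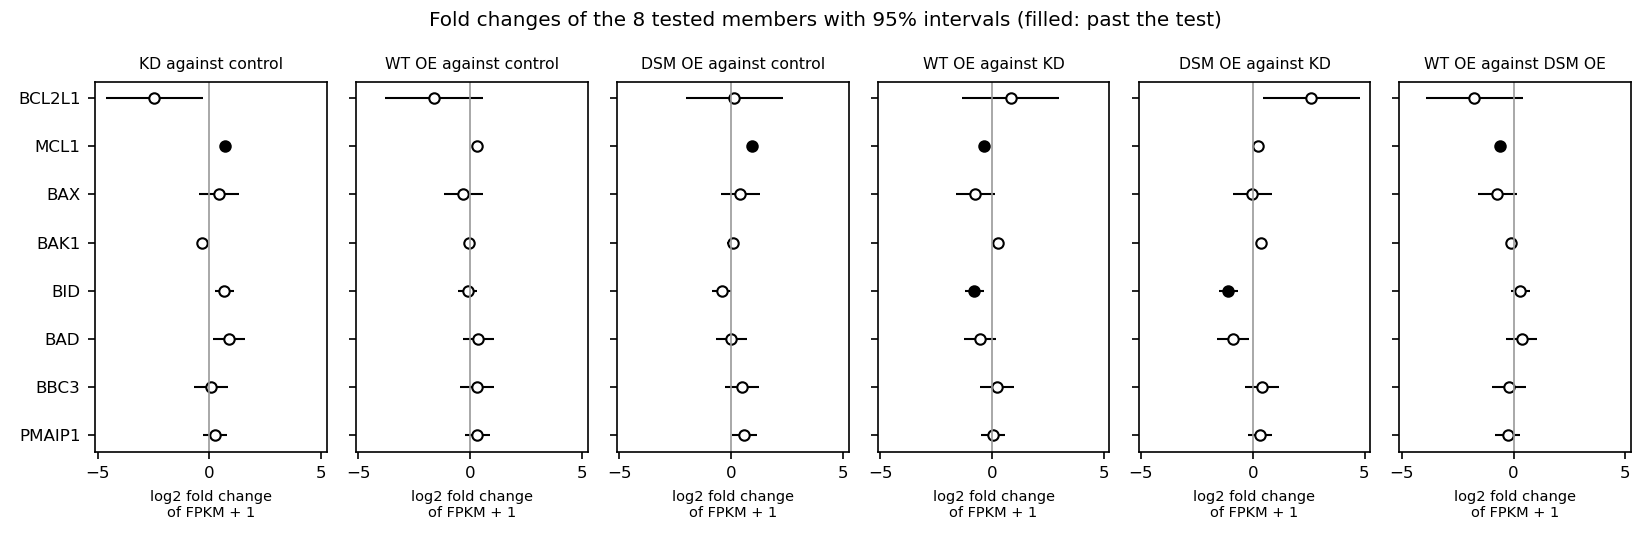
Log2 fold changes of FPKM + 1 (x axis) of the 8 tested members in the 6 comparisons, with 95% intervals from the limma fit; filled points passed the adjusted test. Only *MCL1* and *BID* have filled points, and the *BCL2L1* intervals are the widest, from -4.64 to -0.29 in KD against control.

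Because FPKM is scaled by length, the members can also be set against each other within a library. *MCL1* took 25.8% to 51.2% of the summed FPKM of the 10 members (median 45.7%) and had the highest level in 6 of the 8 libraries. In control replicate 1 and DSM OE replicate 2 *BCL2L1* was higher, with 46.7% and 39.2% of the sum. *BCL2L1* took 4.45% and 5.19% in KD, its lowest shares. The anti-apoptotic genes together took 55.4% to 76.3%, the BH3-only genes 14.3% to 33.3% and the effectors 9.25% to 18.9%. With *BCL2L1* left out of the sum, *MCL1* took 47.5% to 48.4% (control), 53.5% to 54.0% (KD), 48.6% to 53.6% (WT OE) and 57.3% to 60.8% (DSM OE). These shares are of mRNA and say nothing of protein.

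**Figure D4:**
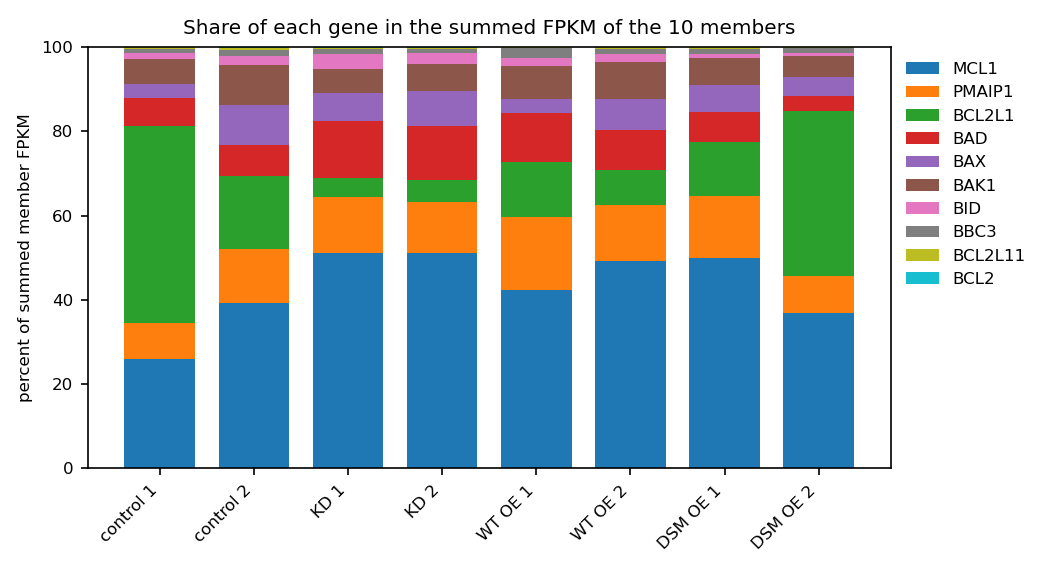
Share of each member in the summed FPKM of the 10 genes (y axis, percent, stacked) in each of the 8 libraries. *MCL1* (blue, at the bottom) runs from 25.8% to 51.2%, and *BCL2L1* (green) is largest in control replicate 1 (46.7%) and DSM OE replicate 2 (39.2%).

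Some members tracked each other over the 8 libraries, as a description with no test. *BAK1* and *BID* ran opposite (r = -0.956), with KD at 1 end for both. *BAK1* and *BAD* also ran opposite (r = -0.726). *BBC3* and *PMAIP1* ran together (r = 0.836), as did *BCL2L1* and *BAK1* (r = 0.763) and *BID* and *BAD* (r = 0.756). All other pairs of tested members were weaker. *MCL1* and *BCL2L1*, the 2 most abundant members by mean FPKM, had r = -0.07. The points share lines and libraries, and 1 line can set such a value.

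Promoter windows in RefSeq were found for 9 of the 10 members, 15 windows in all. The motifs given here, searched on both strands, were AP-1 (TGANTCA), the CRE core (ACGTCA), the core of the amino acid response element (TTGCATC), forkhead (TGTTTAC), the E-box (CACGTG), and the NF-kB consensus by name. The CRE core and the E-box share the letters ACGT. *BAX* held 4 E-boxes, and *BBC3* held an E-box and an AP-1 match. The CRE core was in both *BAD* windows and in that of *PMAIP1*, and forkhead in that of *BCL2L11*. *BCL2* and *BCL2L1* held no match in these windows. Of all 35116 windows, 7.26% held an E-box, 7.98% a CRE core, 7.71% AP-1, 3.42% forkhead and 11.3% the NF-kB consensus, which no member held. A match is only a run of letters.

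Outside the 10 members, 8 of 13 other BCL2 family genes were tested, and *BCL2A1*, *BMF* and *BNIP3L* passed. *BCL2A1*, which encodes an anti-apoptotic protein known as an NF-kB target, was listed at 0 in both control libraries, and at 3.27 and 3.03 (KD), 0 and 0.0602 (WT OE) and 0.917 and 0.172 (DSM OE). KD stood apart from every other line. Only the 2 KD libraries reached an FPKM of 1, so *BCL2A1* entered the test through the line where it was high. Its calls are therefore given as a description, and they also passed with no filter. *CD14*, a myeloid marker, was also higher in KD than in control (log2 fold change 1.31, limma adjusted p = 0.00757), with *PTPRC* near 0, and its part here was not tested. For *BCL2A1*, the log2 fold change of FPKM + 1 was 2.05 in KD over control (limma adjusted p = 0.00823), -2.01 in WT OE against KD (adjusted p = 0.00685) and -1.47 in DSM OE against KD (adjusted p = 0.0128). The first was lost without control replicate 2 or KD replicate 1 (2.01 to 2.09) and the last without either KD library (-1.82 to -1.11). Its promoter window (chr15:79971147-79971446, minus strand, RefSeq, GRCh38.p14) is shown because of these calls, and the capitals mark a match to the amino acid response element core on the other strand, which 2.40% of all windows hold.
BCL2A1 window: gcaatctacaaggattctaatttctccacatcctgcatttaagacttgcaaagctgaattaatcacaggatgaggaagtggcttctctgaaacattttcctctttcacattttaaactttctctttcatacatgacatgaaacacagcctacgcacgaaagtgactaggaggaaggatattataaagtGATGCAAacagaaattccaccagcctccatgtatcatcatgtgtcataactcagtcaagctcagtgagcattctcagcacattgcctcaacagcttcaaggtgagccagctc

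*BMF*, a BH3-only gene, was higher in WT OE. It was listed at 2.13 and 1.06 (control), 1.64 and 2.05 (KD), 6.86 and 8.28 (WT OE) and 3.29 and 3.65 (DSM OE). WT OE was 4.75-fold above control (log2 fold change 1.75, limma adjusted p = 0.0182) and stood above KD by 1.59 (adjusted p = 0.0122). The first call was lost without either WT OE library (1.45 to 2.05) and the second without KD replicate 1 or WT OE replicate 2 (1.47 to 1.71). *BNIP3L*, a mitophagy receptor gene, was higher in DSM OE than in control by 0.56 (limma adjusted p = 0.029), and above KD by 0.47 in WT OE (adjusted p = 0.0431) and 0.54 in DSM OE (adjusted p = 0.0226). Its DSM OE call over control was lost without any 1 library (0.45 to 0.66), and those over KD without either library of a compared line (0.43 to 0.50 and 0.50 to 0.58), the first also without either DSM OE library. Over the 8 tested genes the calls were 1 higher and 0 lower in each line over control (at an unadjusted p under 0.05, KD had 1 and 0, WT OE 2 and 0, and DSM OE 3 and 0). Of all genes, KD over control had 3.51% higher and 3.69% lower, WT OE 2.49% and 2.62%, DSM OE 5.51% and 5.5%. Against KD, WT OE had 2 higher and 1 lower of the 8 (all genes 5.78% and 5.91%). DSM OE had 1 and 1 against KD (all genes 8.04% and 8.83%). Limma called none of the 8 in WT OE against DSM OE (1 and 0 unadjusted). Counts this small are not read as a result about this list. The list medians over control were 0.16 (KD), 0.00 (WT OE) and 0.21 (DSM OE), beside 0.03, 0.02 and 0.02 over all genes.

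Of 20 genes of the apoptosome, caspases and mitochondrial factors, 19 were tested, with the clearest calls in KD. *VDAC3*, a gene of the outer membrane channel, was 14.2 and 12.8 (control), 2.04 and 2.37 (KD), 11.6 and 12.3 (WT OE) and 10.7 and 10.6 (DSM OE). The KD libraries were the lowest, 6.11-fold under control by means (log2 fold change -2.18, limma adjusted p = 0.000402). WT OE and DSM OE stood above KD by 2.02 (adjusted p = 0.000693) and 1.86 (adjusted p = 0.000735). *BIRC3*, which encodes the inhibitor of apoptosis cIAP2 and is known as an NF-kB target, was 1.01 and 0.844 (control), 6.34 and 8.51 (KD), 0.709 and 0.724 (WT OE) and 1.18 and 1.52 (DSM OE). KD stood 8.01-fold above control (log2 fold change 2.118, limma adjusted p = 0.00195), and WT OE and DSM OE stood at -2.28 and -1.83 against KD (adjusted p = 0.00134 and 0.0026). These *VDAC3* and *BIRC3* calls held with each library left out.

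Smaller calls in that list were less firm. *CASP2*, a caspase gene, was lower in KD than in control (-0.71, limma adjusted p = 0.0334). Against KD, *CASP6*, an executioner caspase gene, was higher in WT OE (0.63, limma adjusted p = 0.0255) and in DSM OE (0.61, adjusted p = 0.0221), and *ENDOG*, the endonuclease G gene, was lower in WT OE (-0.87, adjusted p = 0.0368). *CYCS*, the cytochrome c gene, and *VDAC1*, another channel gene, were lower in DSM OE than in KD (-1.002 and -0.559, limma adjusted p = 0.0144 and 0.0253). *CYCS* was 36.4 and 25.7 (control), 42.9 and 42.2 (KD), 31.7 and 33.4 (WT OE) and 21.5 and 20.0 (DSM OE). Each of these calls was lost without at least 1 library: *CASP2* without any but those of WT OE (-0.77 to -0.66), *CASP6* without any of the compared lines (0.57 to 0.69 and 0.56 to 0.67), *ENDOG* without any but control (-0.93 to -0.81), *CYCS* without any of the compared lines (-1.05 to -0.95) and *VDAC1* without either DSM OE library or KD replicate 1 (-0.68 to -0.44). KD over control had 1 higher and 2 lower, beside 3.51% and 3.69% of all genes. Against KD, WT OE had 2 higher and 2 lower (all genes 5.78% and 5.91%). DSM OE had 2 higher and 3 lower against KD (all genes 8.04% and 8.83%). Counts this small are not read as a result about this list. In WT OE over control limma called none (2 higher and 1 lower unadjusted), nor in WT OE against DSM OE (2 and 1 unadjusted). List medians over control were 0.27 (KD), 0.10 (WT OE) and -0.05 (DSM OE).

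Of 13 regulators of the members, 11 were tested, and 4 passed in some comparison. *ATF4*, an integrated stress response factor that induces *BBC3* and *PMAIP1*, was 163 and 167 (control), 158 and 160 (KD), 244 and 228 (WT OE) and 247 and 207 (DSM OE). Both overexpression lines lay above control and KD. The log2 fold changes were 0.45 in DSM OE over control (limma adjusted p = 0.0496), and 0.57 and 0.51 in WT OE and DSM OE over KD (adjusted p = 0.0252 and 0.0272). *DDIT3*, which encodes the stress factor CHOP, was 8.23 and 8.93 (control), 6.45 and 5.70 (KD), 7.75 and 9.68 (WT OE) and 23.9 and 13.4 (DSM OE), with DSM OE above KD by 1.42 (limma adjusted p = 0.0202). *HUWE1*, which encodes a ubiquitin ligase of MCL1, was higher in DSM OE than in control (15.8 and 16.1 against 10.2 and 10.2, log2 fold change 0.60, limma adjusted p = 0.0396). *USP9X*, which encodes a deubiquitinase that stabilizes MCL1, stood above KD by 0.49 in WT OE (limma adjusted p = 0.037) and 0.57 in DSM OE (adjusted p = 0.0187). Its FPKM was 3.86 and 4.36 (control), 2.80 and 2.73 (KD), 4.29 and 4.28 (WT OE) and 4.73 and 4.45 (DSM OE).

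Each call in this list was lost without at least 1 library. For *ATF4*, the call of DSM OE over control survived only the loss of DSM OE replicate 2 (0.33 to 0.58), WT OE over KD was lost without any but those of DSM OE (0.52 to 0.62), and DSM OE over KD without any control or KD library or DSM OE replicate 1 (0.38 to 0.63). *DDIT3* was lost without either KD library (1.03 to 1.82) and *HUWE1* without any but those of WT OE (0.59 to 0.61). The *USP9X* call of WT OE over KD was lost with each of the 8 libraries left out (0.48 to 0.50), and that of DSM OE over KD with each library of those lines (0.53 to 0.61). DSM OE over control had 2 higher and 0 lower, beside 5.51% and 5.5% of all genes. Against KD, WT OE had 2 higher and 0 lower (all genes 5.78% and 5.91%). DSM OE had 3 higher and 0 lower against KD (all genes 8.04% and 8.83%). Counts this small are not read as a result about this list. Limma called none in KD or WT OE over control or between the overexpression lines (unadjusted 0 and 1, 1 and 0, and 0 and 2). List medians over control were 0.02 (KD), 0.05 (WT OE) and 0.13 (DSM OE).

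**Figure D5:**
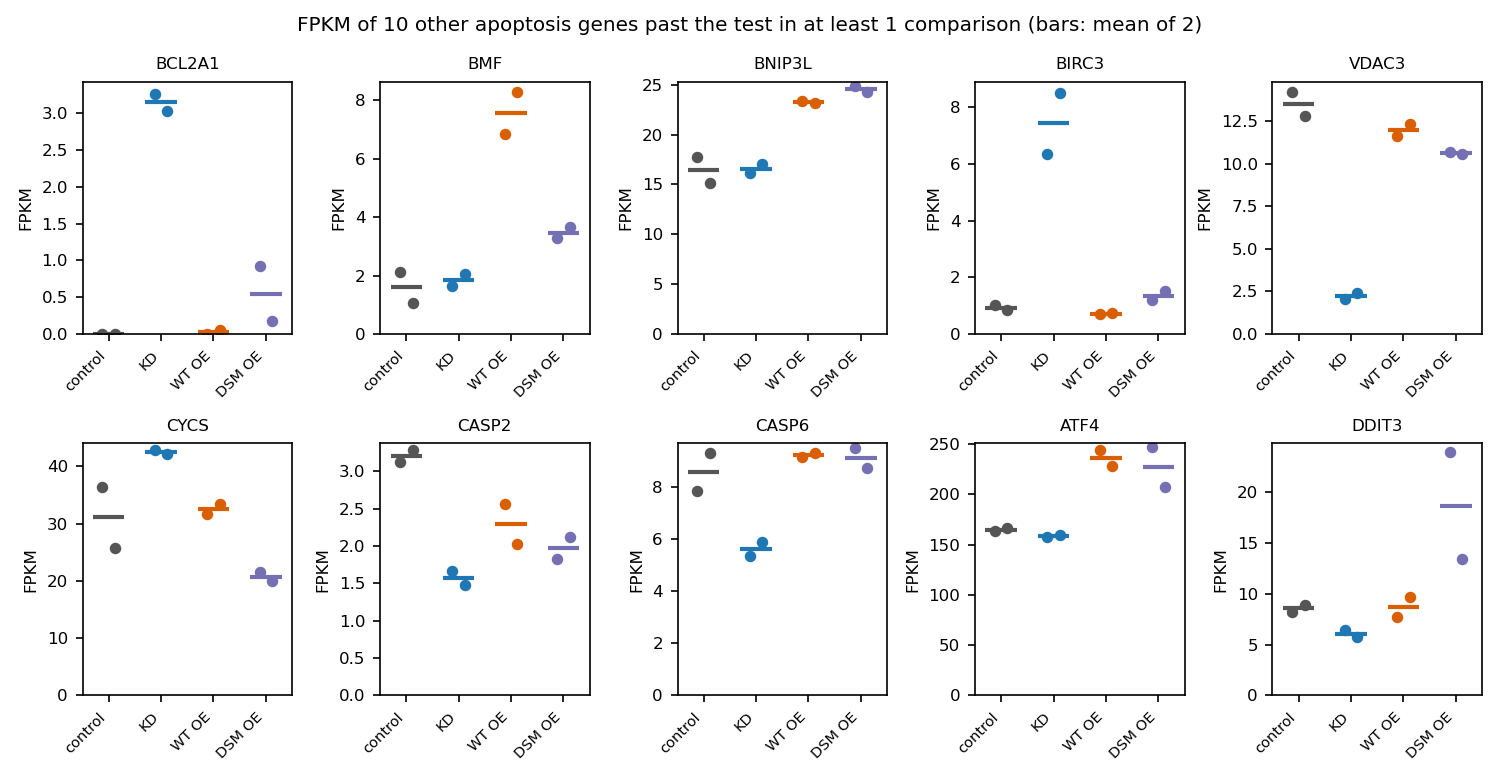
FPKM of 10 other genes of the apoptosis pathway that passed the test in at least 1 comparison (1 panel a gene, with its own axis from 0) in the 2 libraries of each line; points are libraries and bars their mean. Both KD libraries lie above or below all other libraries in every panel except *BMF* and *BNIP3L*, narrowly so in *ATF4*, and WT OE is highest in *BMF*.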

How the data were processed

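The 8 libraries were grouped by their genotype labels. Both DSM OE titles include WT as well, and the genotype label was followed. The design text speaks of duplicate cultures and the sample notes of triplicates, and 2 libraries per line were analysed. The authors computed FPKM, and their deposited values were used without rescaling. The submitters' notes name HISAT2, StringTie, limma, GRCh38 and hg19, and how strand was used is not given in the sources. Values of 36991 Ensembl genes were held, 35836 of them with a symbol. No read counts were used, so precision per value is limited to the spread of 2 cultures.

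Tested genes (10465) reached an FPKM of 1 in 2 or more libraries, and log2(FPKM + 1) was analysed. Such fold changes understate the change of low genes. With limma 3.58.1 (R 4.3.3), 1 mean per line was fitted over the 8 libraries (eBayes with a variance trend, 4 residual and 1.863 prior degrees of freedom). P-values are two-sided and adjusted by the Benjamini-Hochberg method within a comparison, with a threshold of 0.05. DSM OE against KD was added after the values were seen. An exact permutation test of 2 libraries against 2 cannot pass that threshold, and none was used. The test was first tried on simulated data.

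The 10 members and the gene lists were chosen with earlier results of these data known. Every member is named. Other listed genes are named where they passed the test in any comparison, though some are not reported here, and for each member with a call the 2 genes most alike are given. Alternatives were a pseudocount of 0.1, no filter, a filter on mean FPKM (5), median scaling or quantile normalization, no variance trend, a robust fit, the compared lines alone, a replicate block and each library left out. Gene positions and promoter windows come from RefSeq on GRCh38.p14.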

Additional observations from a re-analysis of the deposited data

How the results depend on the processing

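Of 420 member fold changes under other settings, with no library left out, 403 kept both their direction and their call status. A call was gained in 4 and lost in 11. The direction of 2 reversed: *BAD* in DSM OE against control with median scaling (-0.027) and *BAX* in DSM OE against KD with quantile normalization (0.0485). The counts of members called changed as follows, and the cause was not tested. With the compared lines alone, which leaves fewer samples, the counts were 0 higher in DSM OE over control, 0 lower in WT OE against DSM OE, 0 lower in WT OE against KD and 0 lower in DSM OE against KD. Without a variance trend they were 0 lower in WT OE against DSM OE and 1 lower in WT OE against KD. In WT OE against KD 1 was lower with no filter and with the stricter filter. In DSM OE against KD 1 (*BAK1*) was higher with the stricter filter, median scaling or quantile normalization, and 0 were lower with the stricter filter, under which *BID* is not tested.

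No shift shared by cultures of the same replicate number was seen, since correlations of deviations ran from -0.06 to 0.04 between lines. Whether such cultures were handled together is not known here. With the replicate block the counts were 0 lower in WT OE against DSM OE, 0 lower in WT OE against KD and 2 lower in DSM OE against KD. Over all genes the block gave fewer calls, with the count without it in brackets: KD over control 180 higher and 191 lower (367 and 386), WT OE over control 69 and 71 (261 and 274), DSM OE over control 264 and 278 (577 and 576), WT OE against DSM OE 15 and 7 (99 and 68), WT OE against KD 373 and 388 (605 and 618), and DSM OE against KD 569 and 631 (841 and 924). The compared lines alone gave 131 and 137, 6 and 10, 66 and 83, 0 and 0, 148 and 181, and 374 and 426 in these 6 comparisons. The stricter filter, which tests 5368 genes, gave 227 and 233 (KD over control), 65 and 45 (WT OE against DSM OE), 357 and 389 (WT OE against KD) and 487 higher (DSM OE against KD). Calls of genes outside the members were less firm: 46 of 277 values under other settings and 108 of 256 with a library left out no longer passed, beside 11 of 420 and 28 of 384 for the members, most of which had no call to lose. With the compared lines alone, of the calls named for other pathway genes only those of *BIRC3*, *VDAC3*, *ENDOG* and *CYCS*, *BCL2A1* in KD over control and WT OE against KD, and *BMF* in WT OE against KD still passed. The block ended those of *CASP2*, *HUWE1*, *ENDOG*, *VDAC1* and *ATF4*, those of *BMF* and *BNIP3L* over control, and those of *BNIP3L*, *CASP6* and *USP9X* in WT OE against KD. A pseudocount of 0.1 ended *BCL2A1* in DSM OE against KD and *ATF4* in DSM OE over control, and took *BCL2A1* in KD over control to 5.02. No filter ended *CASP2*, *ENDOG* and both *ATF4* calls of DSM OE, median scaling *HUWE1* and *ATF4* in DSM OE over control, and no variance trend *ATF4* there and *BNIP3L* in WT OE against KD. With 1 library left out, counts ran from 0 to 1 for members higher in KD over control, 0 to 0 for those lower in WT OE against DSM OE, 0 to 1 for those lower in WT OE against KD and 0 to 1 for those lower in DSM OE against KD.

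Fold changes that reversed with a library left out ran from -0.27 to 0.31 for *BAD* in DSM OE over control, -0.0815 to 0.000335 for *BAK1* in WT OE over control, -0.17 to 0.13 for *BAX* in DSM OE against KD and -0.75 to 0.14 for *BAX* in WT OE over control. For *BBC3* they ran from -0.0116 to 0.20 in KD over control, -0.18 to 0.79 in WT OE over control, -0.68 to 0.29 in WT OE against DSM OE and -0.28 to 0.70 in WT OE against KD. They ran from -0.90 to 1.20 for *BCL2L1* in DSM OE over control, and for *PMAIP1* from -0.56 to 0.0211 in WT OE against DSM OE and -0.23 to 0.35 in WT OE against KD. No read counts were used, so counting error could not be given, and the FPKM of the shallower libraries (relative depth from 0.918) rest on somewhat fewer reads than those of the deeper (up to 1.17).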
